A study of Mus musculus with 2 samples.

Results

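The 10 genes described here are 9 genes of the osteoclast, the multinucleated cell that resorbs bone, and Csf1r, the receptor that osteoclasts share with macrophages. They were chosen by name from the 32293 genes counted. The osteoclast genes are Acp5, Ctsk, Atp6v0d2, Ocstamp, Dcstamp, Calcr, Oscar, Nfatc1 and Tnfrsf11a. The question was whether nuclei that hold UMIs (counted RNA molecules) of these genes are the nuclei that hold UMIs of C1qa, C1qb and C1qc, the 3 chains of complement C1q, which are abundant in tissue macrophages.

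RNA and open chromatin (ATAC) were read from the same nuclei. They came from tdTomato+ cells of the femurs of mice of genotype Prrx1-cre; R26R(tdTomato/+), aged 21 days after birth, once the distal growth plate had been taken off, and about 15000 were loaded. Males and females of a litter were pooled, and there was 1 RNA library and 1 ATAC library with shared barcodes and no replicate, so every interval below covers counting error only and no difference was tested between animals. The Prrx1-cre driver marks the limb skeletal lineage and switches on the red protein tdTomato in it. Osteoclasts and macrophages are cells of the blood lineage, and how their nuclei came through the tdTomato+ gate was not tested.

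Osteoclasts form from blood precursors that are kept alive by CSF1 acting on CSF1R and are instructed by RANKL acting on RANK, the product of Tnfrsf11a. RANK signalling raises NFATc1, the transcription factor that switches on the fusion genes Dcstamp and Ocstamp and the resorption genes. The mature cell pumps acid onto bone through a V-ATPase that contains the Atp6v0d2 subunit, digests collagen with cathepsin K (Ctsk) and releases the acid phosphatase TRAP (Acp5). Marrow macrophages share CSF1R signalling with it and clear dying cells, with C1q among their products.

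Over 728634 barcodes the data held 35460453 RNA UMIs and 191398837 ATAC counts in 203545 peaks. Nuclei were barcodes with at least 500 UMIs and 1000 ATAC counts, and no mitochondrial limit was set. After removal of the 174 likeliest doublets 4489 nuclei were left, with medians of 2128 UMIs, 32953 ATAC counts and 16.7% mitochondrial UMIs. Free RNA was read from 62603 low-count barcodes, which had 100 to 400 UMIs and fewer than 500 ATAC counts. The transcript Gm42418 took 60.3% of the UMIs in these barcodes, against 13.2% in the osteoclast nuclei and 19.3% in the C1q nuclei defined next, so that their other genes are scaled down in CPM (UMIs per 1e6 UMIs).

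An osteoclast nucleus was first defined as one with at least 2 UMIs from at least 2 of 7 genes (Acp5, Ctsk, Atp6v0d2, Ocstamp, Dcstamp, Calcr and Oscar), and a C1q nucleus as one with at least 2 UMIs of the C1q genes. By this rule 101 nuclei (2.25%, 95% interval 1.84 to 2.73) were osteoclast nuclei, 413 (9.20%, 8.37 to 10.1) were C1q nuclei and 18 were both. C1q nuclei thus made up 17.8% (10.9 to 26.7) of the osteoclast nuclei and 9.0% (8.17 to 9.89) of all other nuclei, so that sharing was the exception, though more frequent among osteoclast nuclei. Of the 101, however, 58 held only 2 or 3 UMIs of the 7 genes, and at a median of 6664 UMIs per nucleus they were deeper than the 2128 UMIs of all nuclei kept.

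With at least 6 UMIs required on both sides, a rule added after these data were seen, 35 osteoclast nuclei (0.780%, 0.544 to 1.08) and 149 C1q nuclei (3.32%, 2.81 to 3.89) were left, and 1 nucleus was both. C1q nuclei were then 2.86% (0.0723 to 14.9) of the osteoclast nuclei, and 3.32% (2.82 to 3.89) of all other nuclei. Osteoclast nuclei were 0.671% (0.0170 to 3.68) of the C1q nuclei, and 0.783% (0.543 to 1.09) of all other nuclei. The excess seen at 2 UMIs was therefore not detectable with 6 UMIs on both sides, where the interval from 1 shared nucleus is wide. With 2 osteoclast and 6 C1q UMIs, C1q nuclei were 7.92% (3.48 to 15.0) of osteoclast nuclei and 3.21% (2.71 to 3.78) of all other nuclei. With 6 osteoclast and 2 C1q UMIs, they were 14.3% (4.81 to 30.3) and 9.16% (8.33 to 10.0). An excess thus remained under the first of these mixed rules, and the second did not go beyond counting error. With the likely doublets kept the numbers at 6 UMIs were 36, 158 and 1. When every nucleus was thinned to 500 UMIs, the rule of 2 UMIs gave 13 osteoclast nuclei, 142 C1q nuclei and none that were both. This still allows a share of up to 24.7% of the 13. A looser rule of at least 1 UMI on both sides gave 194 osteoclast nuclei after the same thinning. C1q nuclei were 9.8% (6 to 14.9) of these and 9.9% (9.02 to 10.8) of all other nuclei, so no excess was detectable there. Without thinning, the looser rule gave 31.25% (27.9 to 34.7) and 25.7% (24.3 to 27.1).

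The 35 nuclei fell well inside the osteoclast rule for the most part. Their sums over the 7 genes had a lowest value of 6, a median of 13 and a highest of 221 UMIs, and 4 of them sat at exactly 6 UMIs while 8 nuclei sat just outside at 4 UMIs and 0 at 5 UMIs. C1q nuclei were less clearly set off, with 6 nuclei at 6 UMIs and 18 just outside at 5 UMIs. Of the 35 osteoclast nuclei 22 held no C1q UMI at all, and of the 149 C1q nuclei 104 held no UMI of the 7 genes, with a highest value of 6.

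The single nucleus in both sets held 67 UMIs of C1qa, 39 of C1qb and 32 of C1qc, against 5 of Acp5 and 1 of Atp6v0d2. It had 6988 UMIs in all, and it alone brought most of the C1q RNA of the osteoclast set. The 35 nuclei had 158 C1q UMIs together, or 699 CPM (594 to 817). Without it the other 34 had 20 UMIs, or 91.3 CPM (55.8 to 141), against 93.4 CPM in the nuclei that were neither and 403 CPM (393 to 414) in low-count barcodes. Below, C1q nuclei are the 148 that were not osteoclast nuclei.

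**Figure D1:**
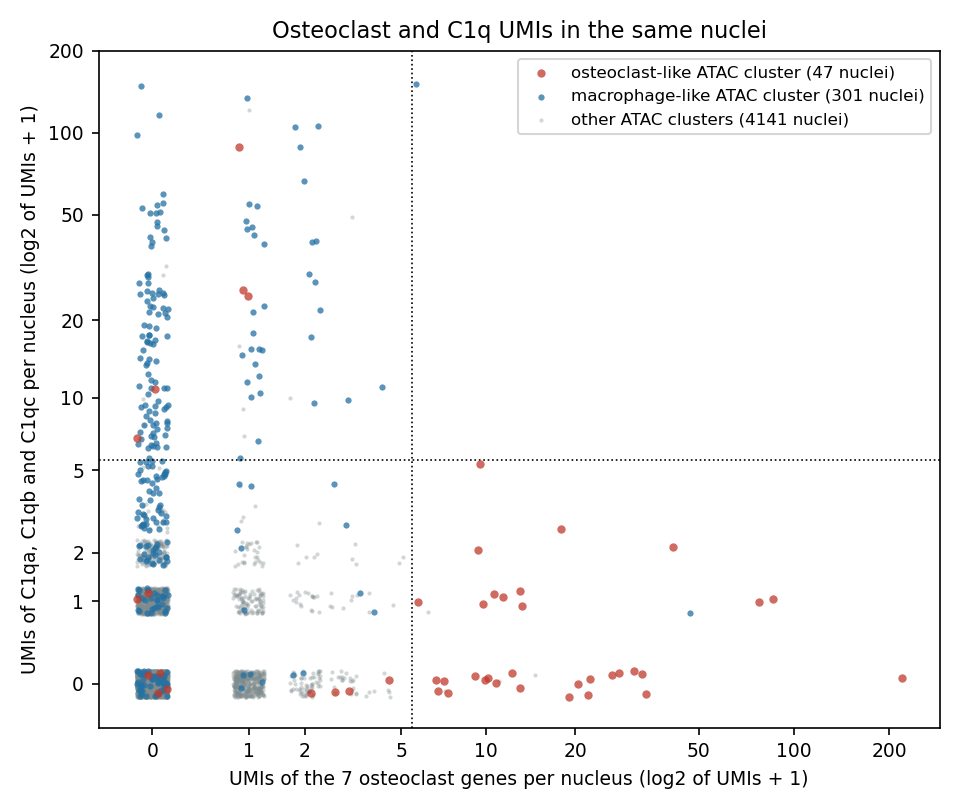
UMIs of the 7 osteoclast genes against UMIs of C1qa, C1qb and C1qc in each of the 4489 nuclei, on log axes that include 0, coloured by ATAC cluster, with dotted lines at 6 UMIs. The 35 osteoclast nuclei and the 149 C1q nuclei run along separate axes, and 1 nucleus lies beyond both lines.

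At 6 UMIs osteoclast nuclei were also richer in mitochondrial RNA than C1q nuclei. Their median was 34.3% mitochondrial UMIs and 2 of 35 lay within a limit of 10%, against a median of 23.6% and 14 of 148 for C1q nuclei. By the rule of 2 UMIs the medians were close, at 23.2% in osteoclast nuclei and 24.0% in C1q nuclei, with 14 of 101 osteoclast nuclei and 63 of 395 C1q nuclei within 10%. Both sets were above the median of 16.7% of all nuclei kept. The part of mitochondrial share and of depth (medians of 5886 UMIs in osteoclast nuclei and 3617 in C1q nuclei) in the differences below was not tested.

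As a grouping that reads no RNA, nuclei were clustered on their ATAC counts without the peaks of the members and of the C1q genes. Of 23 clusters, 1 of 47 nuclei held 30 of the 35 osteoclast nuclei and was named osteoclast-like from RNA markers that include the members, and 1 of 301 nuclei held 134 of the 149 C1q nuclei and was named macrophage-like. All other clusters, with 4141 nuclei, held 3 osteoclast and 10 C1q nuclei. Open chromatin at other sites thus placed most nuclei of each set in separate clusters. The 30 had between 0 and 5 C1q UMIs, with 20 of them at 0, and the 134 had between 0 and 6 UMIs of the 7 genes, with 98 of them at 0.

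Exceptions ran in both directions. The osteoclast-like cluster held 5 C1q nuclei, with 7, 27, 28, 93 and 12 C1q UMIs and 0, 1, 1, 1 and 0 UMIs of the 7 osteoclast genes. The macrophage-like cluster held 2 osteoclast nuclei, which were the nucleus in both sets and one with 52 osteoclast UMIs and 1 C1q UMI. By RNA clusters, made without the members and C1q genes, 29 of the 35 lay in a cluster of 184 nuclei that also had Mpo, a granulocyte enzyme, among its leading genes and was left unnamed, 5 lay in a cluster led by Lars2 and 1 in the macrophage-like cluster. At a finer resolution of 2.0 this cluster divided, and an osteoclast-like cluster of 61 nuclei held 31 of the 35 while a cluster of 140 nuclei led by Mpo held 0.

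The levels of the 5 genes that chose the osteoclast nuclei are a description. Ctsk, the collagen-digesting protease, had 339 UMIs or 1499.6 CPM (1344 to 1668) in osteoclast nuclei, against 19 UMIs or 27.8 CPM (16.7 to 43.4) in C1q nuclei. Per nucleus it had a lowest value of 0, a median of 3 and a highest of 121 UMIs, so a few nuclei carried much of it. Since Ctsk helped to choose these nuclei, it was read again in nuclei chosen by the other 6 genes, where it stood at 1573 CPM in 30 nuclei. Low-count barcodes had 117 CPM of Ctsk and the nuclei that were neither had 37.4 CPM.

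Acp5 had 289 UMIs in osteoclast nuclei, or 1278 CPM (1135 to 1435), in 33 of 35 nuclei, against 31 UMIs or 45.4 CPM (30.8 to 64.4) in C1q nuclei. Nuclei chosen by the other 6 genes had 1420.1 CPM. Atp6v0d2 had 234 UMIs, or 1035 CPM (907 to 1177), in 34 of 35 osteoclast nuclei, against 13 UMIs or 19.0 CPM (10.1 to 32.5) in C1q nuclei, 4.20 CPM in nuclei that were neither and 11.0 CPM in low-count barcodes. It was the most even of these genes, with between 0 and 23 UMIs per nucleus and a median of 5. In B-lymphoid-like nuclei, which should lack all of them, Acp5 was seen in 3.54%, Ctsk in 2.36% and Atp6v0d2 in 0.394% at a median of 1044.5 UMIs. Seen pairwise in the osteoclast nuclei, Acp5 and Atp6v0d2 occurred together in 32 of the 35 nuclei, Acp5 and Ctsk in 28, and Ctsk and Atp6v0d2 in 29. The rule itself required UMIs of different osteoclast genes in the same nucleus, so these overlaps were partly imposed by it. They are a description and not a separate result.

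The fusion genes were scarce and most of their UMIs lay in osteoclast nuclei. Ocstamp, which encodes OC-STAMP, had 24 UMIs in 12 of 35 osteoclast nuclei, or 106 CPM (68.0 to 158), and at most 5 UMIs in one nucleus. Dcstamp, which encodes DC-STAMP, had 33 UMIs in 14 nuclei, or 146 CPM (100.5 to 205), and at most 14 in one. Both had 0 UMIs in the 148 C1q nuclei, where 3 UMIs would be 4.39 CPM. Both were seen together in 5 osteoclast nuclei. Of all UMIs of these genes in nuclei, the 35 nuclei, 0.780% of the total, held 24 of 32 for Ocstamp and 33 of 49 for Dcstamp, with 8 and 16 in the nuclei that were neither. Both genes helped to choose the 35 nuclei, so these shares are a description and not a separate result.

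Calcr, the calcitonin receptor, and Oscar, a collagen-binding receptor that costimulates osteoclast formation, had 0 UMIs in the 35 osteoclast nuclei, where 3 UMIs would be 13.3 CPM, and 0 in the C1q nuclei. In the nuclei that were neither Calcr had 2 UMIs and Oscar 5, so neither was detectable at this depth, and only 5 of the 7 genes took part in choosing nuclei. These 5 overlapped incompletely. Of the 35 nuclei 3 held 2 of the 7 genes, 16 held 3, 11 held 4 and 5 held 5.

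Free RNA and nuclei differed in the proportions of these genes. Low-count barcodes had 3.13 Ctsk UMIs for each Acp5 UMI, and osteoclast nuclei 1.17. For Atp6v0d2 the ratio to Acp5 was 0.810 in osteoclast nuclei and 0.294 in low-count barcodes. Counted over UMIs other than Gm42418 and mitochondrial RNA, a scaling added after the data were seen, Atp6v0d2 stood at 1958 CPM in osteoclast nuclei, 32.5 in C1q nuclei and 28.6 in low-count barcodes, and Ctsk at 2836 in osteoclast nuclei, 47.5 in C1q nuclei and 304 in low-count barcodes. On that scale neither gene in C1q nuclei stood clear above the low-count barcodes.

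**Figure D2:**
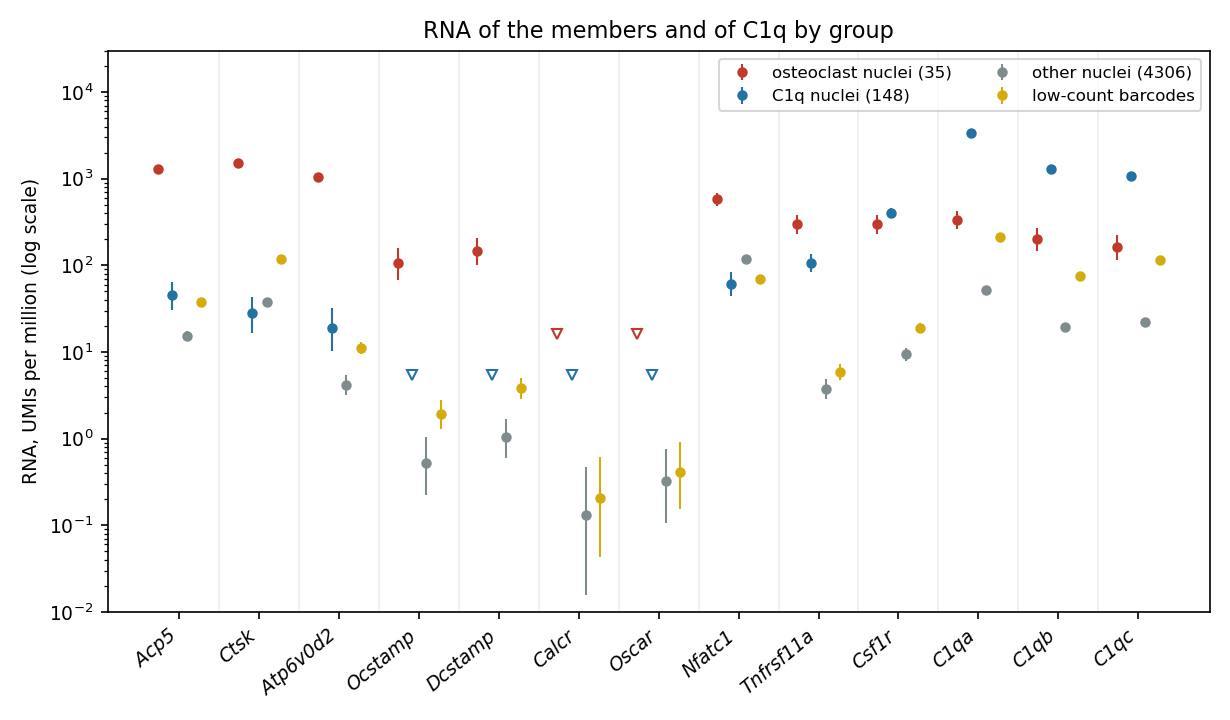
RNA level (CPM of all UMIs, log axis) of the 10 members and C1qa, C1qb and C1qc in the 35 osteoclast nuclei, the 148 C1q nuclei, the nuclei that were neither and the low-count barcodes, with exact Poisson 95% intervals and open triangles at the upper limit where no UMI was found. Acp5, Ctsk and Atp6v0d2 lie above 1000 CPM only in osteoclast nuclei, and Csf1r lies near 300 to 400 CPM in both osteoclast and C1q nuclei.

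The 3 members that the rule did not use were the receptors Csf1r and Tnfrsf11a and the factor Nfatc1. Csf1r was found in 23 of 35 osteoclast nuclei (65.7%, 47.8 to 80.9) and in 94 of 148 C1q nuclei (63.5%, 55.2 to 71.3), and in 3.04% of nuclei that were neither. Its level was 67 UMIs or 296 CPM (230 to 376) in osteoclast nuclei and 276 UMIs or 404 CPM (358 to 455) in C1q nuclei, a log2 ratio of −0.44, against 9.44 CPM in nuclei that were neither and 19.1 CPM in low-count barcodes. The share of nuclei with Csf1r therefore did not divide the 2 sets. The Csf1r level by this rule was lower in osteoclast nuclei, with intervals that overlapped. Per nucleus Csf1r had a median of 1 UMI in both, with a highest value of 23 in osteoclast nuclei and 12 in C1q nuclei.

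The nucleus in both sets had 1 Csf1r UMI, and without it the other 34 had 66, or 301 CPM (233 to 383). Among the 34 osteoclast nuclei with Atp6v0d2, 23 also held Csf1r. Thinned to 500 UMIs per nucleus, Csf1r was seen in 14.3% of osteoclast nuclei (5 of 35), 13.5% of C1q nuclei (20 of 148) and 0.859% of the nuclei that were neither. B-lymphoid-like nuclei, which should lack it, had it in 1.18% before thinning, at a median of 1044.5 UMIs, and in 0.787% after. In the groups by ATAC clusters Csf1r had 313 CPM (250.1 to 387) in osteoclast-like nuclei and 220.3 CPM (195 to 248) in macrophage-like nuclei, the opposite order. No order between the 2 sets thus held under both groupings. The osteoclast-like cluster also counts 5 C1q nuclei, which held 0, 6, 1, 9 and 4 of its 85 Csf1r UMIs. Its order without these nuclei was not tested. By the rule of 2 UMIs the log2 ratio was −0.87, and 0.54 when Ctsk was left out of the rule.

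Tnfrsf11a, the RANK gene, had 67 UMIs in 20 of 35 osteoclast nuclei, or 296 CPM (230 to 376), against 73 UMIs in 48 of 148 C1q nuclei, or 107 CPM (83.8 to 134), and 3.74 CPM in nuclei that were neither. The ratio was 1.47 on the log2 scale. C1q nuclei thus also held RANK RNA, above the 5.89 CPM of low-count barcodes, and of all Tnfrsf11a UMIs in nuclei 34.0% lay in osteoclast nuclei and 37.1% in C1q nuclei. Among RNA clusters it stood at 132 CPM in the unnamed cluster of osteoclast nuclei, 90.8 CPM in the macrophage-like cluster and at most 6.03 CPM in the others, with 0 UMIs in 254 B-lymphoid-like nuclei.

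Nfatc1 had 131 UMIs in 26 of 35 osteoclast nuclei, or 579 CPM (485 to 688), against 42 UMIs or 61.5 CPM (44.3 to 83.1) in C1q nuclei, a log2 ratio of 3.22. It was not particular to osteoclasts in level. Chondrocyte-like nuclei had 830 UMIs, or 372 CPM (347 to 398), in 76.1% of 188 nuclei, and the nuclei that were neither had 118 CPM (113 to 124). Osteoclast nuclei held only 6.62% of its UMIs in nuclei. Thinned to 500 UMIs, it was seen in 17.1% of osteoclast nuclei and 13.8% of chondrocyte-like nuclei, against 3.38% of C1q nuclei.

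By the fixed call of a 2-fold difference with at least 20 UMIs over both sides, 2 of the 3 members the rule did not use were higher in osteoclast than in C1q nuclei and 0 lower, where 11.9% of all 5209 genes tested were higher and 23.1% lower. In the ATAC cluster groups 2 were higher and 0 lower, beside 19.2% higher and 21.8% lower of 6858 genes. By the rule of 2 UMIs 1 was higher and 0 lower, beside 4.39% higher and 9.46% lower of 9035 genes. That 1 gene was Nfatc1, at 234 CPM (206 to 266) in osteoclast nuclei and 105 CPM (90.3 to 120.3) in C1q nuclei.

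Accessibility gave a reading that shares no molecule with the RNA. It was taken as ATAC counts in peaks over a gene and 3 kb upstream, in CPM of all ATAC counts in peaks, and followed the same nuclei. The C1q locus had 23 counts or 12.6 CPM in osteoclast nuclei, against 802 counts or 129 CPM in C1q nuclei and 7.81 CPM in nuclei that were neither. The log2 ratio of −3.32 (−3.92 to −2.73) stood beside 6.83% of 20795 genes 2-fold lower and 7.03% higher. In nuclei with osteoclast RNA the C1q locus was thus nearer to the nuclei that were neither (log2 0.73 above them, 0.14 to 1.31) than to C1q nuclei. The nuclei that were neither included part of the macrophage-like ATAC cluster, where 134 of 301 nuclei were C1q nuclei and 2 were osteoclast nuclei. By the rule of 2 UMIs the log2 ratio of osteoclast over C1q nuclei was −2.37, beside 2.9% of 23562 genes lower and 3.45% higher.

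Over the loci of the 7 osteoclast genes together osteoclast nuclei had 252 CPM and C1q nuclei 158 CPM, a log2 ratio of 0.68 (0.52 to 0.84), against 78.6 CPM in nuclei that were neither. Peaks within 1 kb of the start were found for 5 of the 7 loci, not for Acp5 and Ocstamp, and over these peaks the ratio was 1.86 (1.54 to 2.17), against 0.64 (0.44 to 0.84) over the whole windows of the same 5 loci. By the rule of 2 UMIs the ratio over the windows of all 7 loci was 0.29, and −0.10 once nuclei above 20% mitochondrial UMIs were left out. Whole-gene windows of Atp6v0d2 had 102 CPM in osteoclast nuclei and 81.1 CPM in C1q nuclei, while its start peak had 53 counts or 29.1 CPM in osteoclast nuclei, 22 counts or 3.55 CPM in C1q nuclei and 1.37 CPM in nuclei that were neither. Peaks in the body went both ways. Over all 71517 peaks with at least 20 counts over both sides, 20.8% had intervals above 0 and 16.5% below. Of the 7 Atp6v0d2 peaks with at least 20 counts, the start included, 4 had intervals above 0, 2 below and 1 overlapped 0. Those above 0 in the body were at 3.54 kb (log2 1.64, 1.03 to 2.24), 21.3 kb (0.72, 0.01 to 1.44) and 41.5 kb (1.56, 0.46 to 2.65), and of those below 0 the one with more counts had 18.7 CPM in osteoclast nuclei and 42.4 CPM in C1q nuclei at 27.0 kb. Dcstamp had 20 counts or 11.0 CPM in osteoclast nuclei against 5 counts or 0.806 CPM in C1q nuclei (log2 3.67, 2.31 to 5.03). Ctsk had 43 counts or 23.6 CPM in osteoclast nuclei against 10 counts or 1.61 CPM in C1q nuclei (log2 3.82, 2.85 to 4.79), in a window that overlaps Arnt.

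The start regions of these 3 genes are shown because they had the clearest gain in osteoclast nuclei. They are 300 bases of mm10, written 5′ to 3′ on the strand of the gene, and capitals mark GAGGAA (or TTCCTC), the core bound by PU.1, and TGANTCA, bound by AP-1, searched on both strands. The Atp6v0d2 window is chr4:19922606-19922905 (minus strand), from the start peak with exons left out. The Dcstamp window is chr15:39746339-39746638 (plus strand), from the peak at its start. The Ctsk window is the RefSeq promoter (GRCm38.p6) at chr3:95498960-95499259 (plus strand).
Atp6v0d2: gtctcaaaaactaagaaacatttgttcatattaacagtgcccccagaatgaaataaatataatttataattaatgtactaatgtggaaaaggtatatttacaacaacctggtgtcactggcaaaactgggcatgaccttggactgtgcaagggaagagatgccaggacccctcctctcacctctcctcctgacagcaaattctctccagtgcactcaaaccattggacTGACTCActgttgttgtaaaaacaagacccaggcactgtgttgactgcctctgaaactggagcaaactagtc
Dcstamp: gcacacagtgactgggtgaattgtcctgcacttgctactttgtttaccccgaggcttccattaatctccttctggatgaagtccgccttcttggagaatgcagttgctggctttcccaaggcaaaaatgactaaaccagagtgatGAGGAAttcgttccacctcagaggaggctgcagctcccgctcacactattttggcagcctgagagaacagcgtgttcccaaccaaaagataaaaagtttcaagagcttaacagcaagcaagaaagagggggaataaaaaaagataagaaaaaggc
Ctsk: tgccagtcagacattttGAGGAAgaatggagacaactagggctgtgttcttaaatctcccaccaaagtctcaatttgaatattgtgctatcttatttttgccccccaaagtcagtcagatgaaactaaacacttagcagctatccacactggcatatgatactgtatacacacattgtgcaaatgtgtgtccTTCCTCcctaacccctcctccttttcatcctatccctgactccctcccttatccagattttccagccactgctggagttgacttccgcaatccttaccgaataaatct
Atp6v0d2 held 1 AP-1 match, Dcstamp 1 PU.1 core and Ctsk 2 PU.1 cores. GAGGAA occurred in 28.3% and TGANTCA in 7.81% of 32851 RefSeq promoters, and in 30.8% and 20.4% of the central 300 bases of 203408 peaks, so a match is a description of these letters and not a site of binding.

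The C1qb promoter, whose locus was open in C1q nuclei, is given beside them as the RefSeq promoter at chr4:136886151-136886450 (minus strand), with 1 PU.1 core in capitals.
C1qb: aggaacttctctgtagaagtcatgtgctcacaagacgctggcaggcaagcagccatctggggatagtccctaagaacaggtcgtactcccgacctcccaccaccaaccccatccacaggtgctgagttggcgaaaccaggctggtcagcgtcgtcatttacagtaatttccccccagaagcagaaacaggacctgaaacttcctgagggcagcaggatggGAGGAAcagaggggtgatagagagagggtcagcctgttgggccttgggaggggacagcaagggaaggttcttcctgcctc
All 4 C1q peaks with at least 20 counts had intervals below 0 for osteoclast over C1q nuclei, where 20.8% of 71517 such peaks lay above 0 and 16.5% below.

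Other osteoclast loci separated less. Acp5 had 54.4 CPM in osteoclast nuclei and 22.4 CPM in C1q nuclei (log2 1.28, 0.91 to 1.65). Its 3 peaks were all higher, as were 20.8% of all 71517 peaks with at least 20 counts. Its strongest was 4.22 kb inside the gene model, with 35.2 CPM in osteoclast nuclei and 12.2 CPM in C1q nuclei. Ocstamp differed little, at 32.4 CPM in osteoclast nuclei and 28.8 CPM in C1q nuclei (log2 0.18, −0.25 to 0.60), although its RNA was found in no C1q nucleus. Calcr and Oscar had no RNA in either set. The whole window of Calcr did not differ beyond counting error (log2 0.35, −0.73 to 1.42). Its peak within 1 kb of the start had 6 counts in osteoclast nuclei and 2 in C1q nuclei (log2 3.15, 1.04 to 5.25). These are fewer than the 20 counts asked of peaks elsewhere, so this ratio rests on very few counts. By the rule of 2 UMIs the same peak had 16 counts in osteoclast nuclei and 10 in C1q nuclei (log2 2.06, 0.94 to 3.17). The only peak in the window of Oscar, which overlaps Ndufa3, did not differ beyond counting error (log2 0.37, −0.13 to 0.87).

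**Figure D3:**
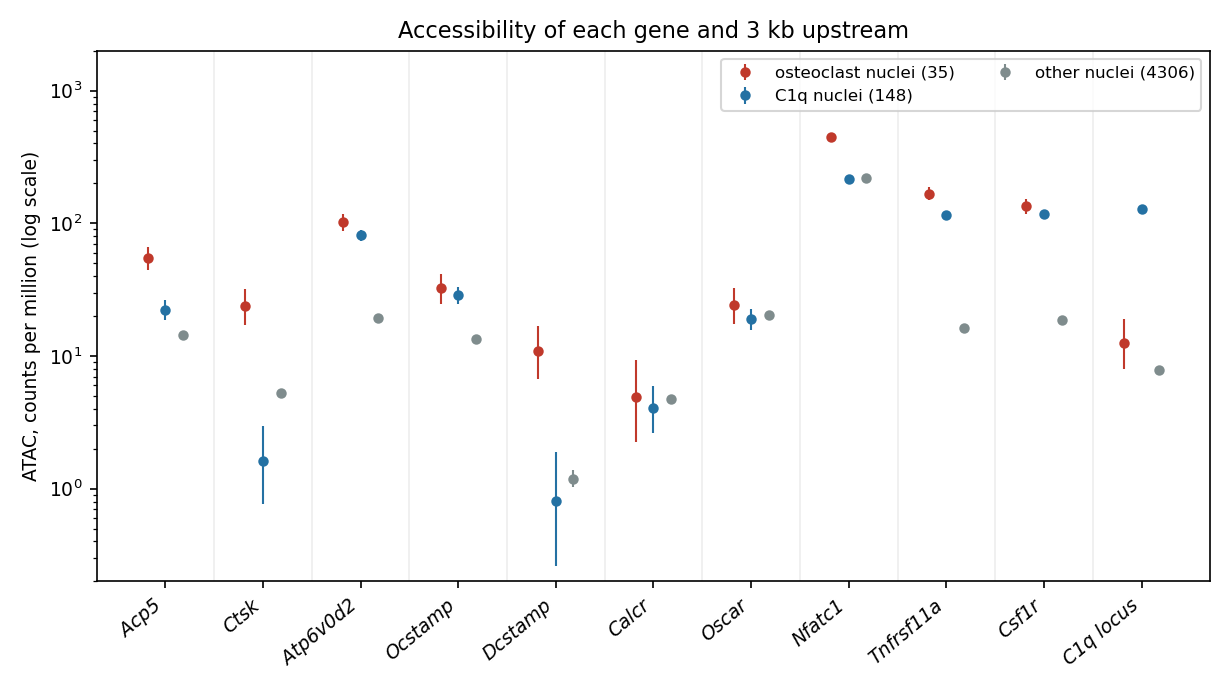
Accessibility (ATAC CPM over the gene and 3 kb upstream, log axis, exact Poisson 95% intervals) of the 10 members and the C1q locus in osteoclast nuclei, C1q nuclei and nuclei that were neither. Csf1r is at 135 CPM in osteoclast nuclei and 118 CPM in C1q nuclei, whereas the C1q locus is at 12.6 CPM in osteoclast nuclei and 129 CPM in C1q nuclei.

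Csf1r was open in both sets, at 135 CPM in osteoclast nuclei and 118 CPM in C1q nuclei (log2 0.19, −0.02 to 0.40), against 18.5 CPM in nuclei that were neither. Its window overlaps Hmgxb3. The sum hid different peaks. At 12.7 kb inside the gene osteoclast nuclei had 0 counts and C1q nuclei 49, or 7.90 CPM. At 27.1 kb osteoclast nuclei had 65 counts or 35.7 CPM and C1q nuclei 30 counts or 4.83 CPM. Of 7 Csf1r peaks with at least 20 counts, 2 had intervals above 0, 3 below and 2 overlapped 0. Over all 71517 such peaks 20.8% lay above 0 and 16.5% below. The Csf1r locus as a whole did not differ beyond counting error, while single peaks did.

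Tnfrsf11a had 167 CPM in osteoclast nuclei and 115 CPM in C1q nuclei (log2 0.54, 0.35 to 0.73), against 16.4 CPM in nuclei that were neither. Its start was as open in C1q nuclei, with 19.8 CPM in osteoclast nuclei and 27.7 CPM in C1q nuclei. Peaks inside the gene differed most. At 34.3 kb osteoclast nuclei had 34 counts or 18.7 CPM and C1q nuclei 2 counts or 0.322 CPM (log2 5.56), and at 48.7 kb they had 32 counts and C1q nuclei 3 (log2 4.98). Of its 11 peaks with at least 20 counts 6 had intervals above 0, 1 below and 4 overlapped 0. Over all 71517 such peaks the shares were 20.8% above 0 and 16.5% below.

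These 2 internal peaks are shown because they separated the 2 sets more than the shared start did. They are the central 300 bases on the plus strand at chr1:105814874-105815173 and chr1:105829283-105829582, with the same capitals.
Tnfrsf11a 34.3 kb: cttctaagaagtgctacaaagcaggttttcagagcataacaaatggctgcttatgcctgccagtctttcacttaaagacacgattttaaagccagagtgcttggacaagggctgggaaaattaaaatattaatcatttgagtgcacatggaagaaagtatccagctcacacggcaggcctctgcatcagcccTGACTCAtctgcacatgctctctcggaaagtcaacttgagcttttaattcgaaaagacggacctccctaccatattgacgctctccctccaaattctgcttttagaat
Tnfrsf11a 48.7 kb: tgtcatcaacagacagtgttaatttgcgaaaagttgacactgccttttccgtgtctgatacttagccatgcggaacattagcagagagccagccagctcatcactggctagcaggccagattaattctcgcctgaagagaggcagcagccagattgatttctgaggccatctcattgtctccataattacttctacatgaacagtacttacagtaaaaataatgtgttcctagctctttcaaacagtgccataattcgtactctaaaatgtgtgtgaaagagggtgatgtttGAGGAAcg
The peak at 34.3 kb held 1 AP-1 match and the peak at 48.7 kb held 1 PU.1 core.

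Nfatc1 had 450 CPM in osteoclast nuclei and 216 CPM in C1q nuclei (log2 1.05, 0.93 to 1.18), against 218 CPM in nuclei that were neither. Of its 26 peaks with at least 20 counts 18 had intervals above 0, 1 below and 7 overlapped 0. Over all 71517 such peaks the shares were 20.8% above 0 and 16.5% below. The peak at 52.5 kb had 27.5 CPM in osteoclast nuclei and 0.806 CPM in C1q nuclei (log2 4.97).

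**Figure D4:**
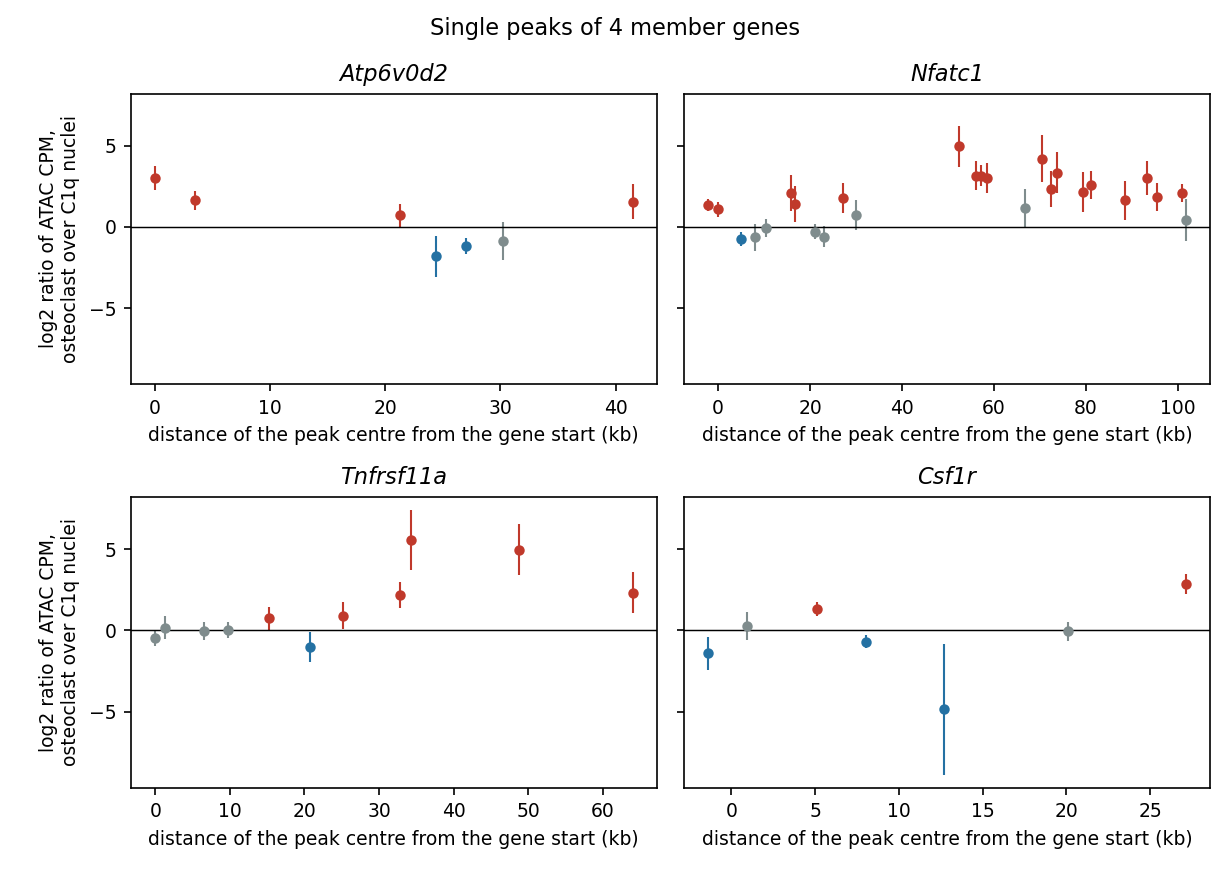
Log2 ratio of accessibility, osteoclast over C1q nuclei, for peaks with at least 20 counts over both sides in Atp6v0d2, Nfatc1, Tnfrsf11a and Csf1r, by distance from the start of the gene in kb, with 95% intervals (red above 0, blue below 0, grey overlapping 0). In Csf1r and Atp6v0d2 peaks go in both directions, while 18 of the 26 Nfatc1 peaks lie above 0. Over all 71517 such peaks 20.8% lie above 0 and 16.5% below.

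Genes of the resorption machinery that took no part in choosing the nuclei were mostly higher in osteoclast nuclei. Of 17 tested 10 were higher and 0 lower, with a median log2 ratio of 1.26 beside −0.09 over all genes tested. Of all 5209 genes tested 11.9% were higher and 23.1% lower. Mmp9, a collagenase, had 942 CPM in osteoclast nuclei and 29.3 CPM in C1q nuclei, and Pstpip1, an adaptor of the actin skeleton, had 199 CPM in osteoclast nuclei and 2.93 CPM in C1q nuclei. Slc4a2, the anion exchanger that balances acid secretion, had 226 CPM in osteoclast nuclei and 33.7 CPM in C1q nuclei. Atp6v1b2, a V-ATPase subunit, had 734 CPM in osteoclast nuclei and 240.1 CPM in C1q nuclei, and Mmp14, a membrane metalloprotease, had 734 CPM in osteoclast nuclei and 269 CPM in C1q nuclei.

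Signalling and transcription genes went both ways, with 4 of 23 higher and 9 lower and a median of 0.05. Over all 5209 genes tested the shares were 11.9% higher and 23.1% lower, also in both directions. Ppargc1b, a coactivator of mitochondrial genes, had 212 CPM in osteoclast nuclei and 11.7 CPM in C1q nuclei, and Myo1d, a myosin, had 292 CPM in osteoclast nuclei and 24.9 CPM in C1q nuclei. Tfec, a factor of the MITF family, had 4.42 CPM in osteoclast nuclei and 58.6 CPM in C1q nuclei, and the receptor Trem2 had 8.85 CPM in osteoclast nuclei and 52.7 CPM in C1q nuclei.

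Macrophage genes were lower throughout, with 0 of 18 higher and 18 lower and a median of −3.95, or −3.53 with Cd163 and Timd4, absent from osteoclast nuclei, placed at the level of 3 UMIs. These counts stood beside 11.9% higher and 23.1% lower of all 5209 genes tested. Mertk, a receptor for dying cells, had 31 CPM in osteoclast nuclei and 647 CPM in C1q nuclei. The lectin Fcna had 8.85 CPM in osteoclast nuclei and 373 CPM in C1q nuclei, and the chemokine receptor Cx3cr1 had 8.85 CPM in osteoclast nuclei and 312 CPM in C1q nuclei. Cd163, a haemoglobin scavenger receptor, had 0 UMIs in osteoclast nuclei and 42 in C1q nuclei, and Timd4, a phosphatidylserine receptor, 0 in osteoclast nuclei and 37 in C1q nuclei.

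The same lists in the ATAC cluster groups gave 12 of 17 higher and 0 lower for resorption, 6 of 23 higher and 5 lower for signalling, and 0 of 18 higher and 15 lower for macrophage genes. Of all 6858 genes tested there 19.2% were higher and 21.8% lower. By the rule of 2 UMIs the 3 lists gave 3 of 18 higher and 0 lower, 3 of 23 higher and 8 lower, and 0 of 18 higher and 18 lower. Of all 9035 genes tested by that rule 4.39% were higher and 9.46% lower. The direction of the resorption and macrophage lists was thus alike under the 3 groupings, and the number of resorption genes past 2-fold was not.

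**Figure D5:**
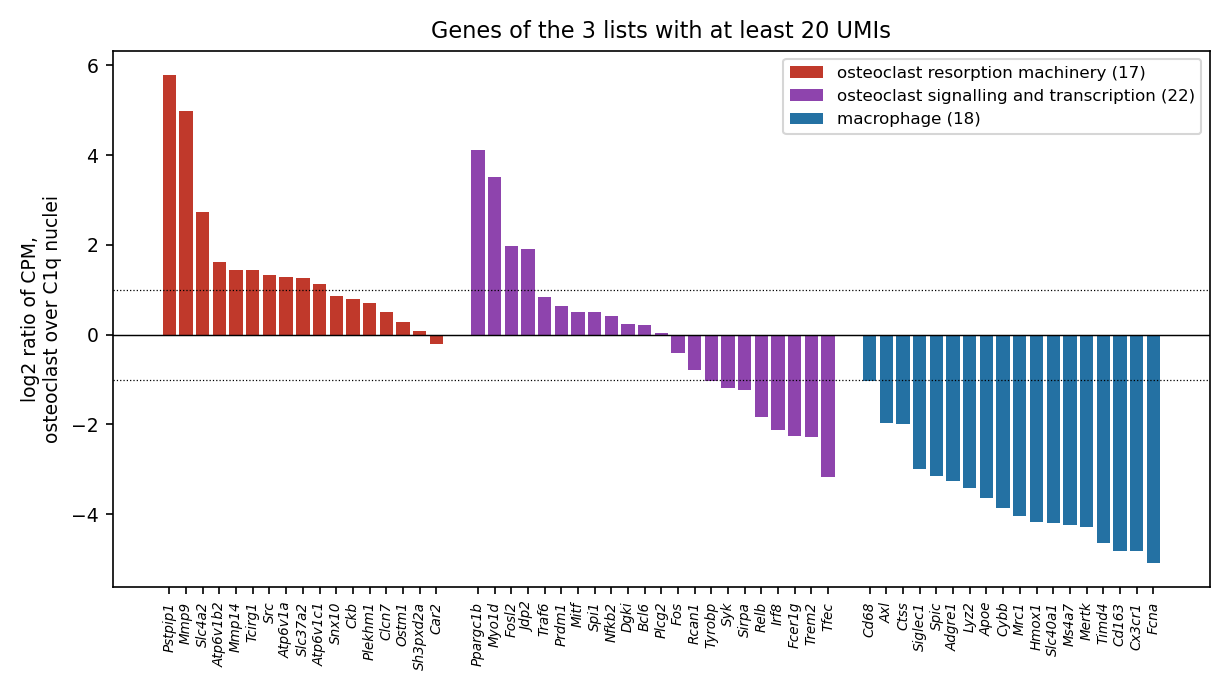
Log2 ratio of RNA, osteoclast over C1q nuclei, for each gene with at least 20 UMIs over both sides in the resorption, signalling and macrophage lists, apart from 1 signalling gene not reported here, with dotted lines at 2-fold in both directions. All 18 macrophage genes lie below the lower line, 10 of 17 resorption genes above the upper line.

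Outside the members and lists, the genes with the highest ratio of osteoclast nuclei over all other nuclei were led by Slc9b2, a sodium and proton exchanger, with 60 UMIs in 22 nuclei or 265 CPM against 1.57 CPM in all other nuclei. The chemokine gene Ccl9 had 323 CPM in osteoclast nuclei and 6.02 in the others, the zinc finger gene St18 451 in osteoclast nuclei and 8.72 in the others, and Shtn1 146 in osteoclast nuclei and 3.39 in the others. Gpnmb, a membrane glycoprotein, had 102 CPM in 5 osteoclast nuclei and 2.57 in the others, and the calcium-binding S100a4 had 858 CPM in osteoclast nuclei and 22.1 in the others. These nuclei were chosen by RNA, so the ranking is a description.

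Over the RNA clusters, Csf1r was ordered as 319.9 CPM (284 to 360) in the macrophage-like cluster, where 41.8% of 273 nuclei held it, 142 CPM in the unnamed cluster with most osteoclast nuclei and at most 27.5 CPM elsewhere. At a resolution of 2.0 Csf1r had 233 CPM (186 to 288) in the osteoclast-like cluster, 316 CPM (279.8 to 355) in the macrophage-like clusters and 7.99 CPM in all others, and Tnfrsf11a had 244 CPM (196 to 299.7) in the osteoclast-like cluster, 92.9 CPM (74.0 to 115) in the macrophage-like clusters and 1.61 CPM in all others. At a resolution of 1.0 Atp6v0d2 had 333 CPM (292 to 379) in that unnamed cluster, 22.7 CPM (13.9 to 35) in the macrophage-like cluster, 20.1 CPM (12.3 to 31) in the cluster led by Lars2 and at most 11.1 CPM elsewhere, and the order of the macrophage-like and Lars2-led clusters did not go beyond counting error. At a resolution of 2.0 it had 639 CPM (560.3 to 726) in the osteoclast-like cluster and 22.4 CPM (13.7 to 34.6) in the macrophage-like clusters. In reticular-like nuclei Atp6v0d2 had 2 UMIs and in chondrocyte-like nuclei 1 UMI.

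Across the 19 RNA clusters the genes whose level was most like the sum of the 7 osteoclast genes were Ppargc1b (Pearson r of 0.867), Ctsg, a granulocyte protease (0.764), Ccl9 (0.758), Ppp5c (0.742) and Gnptab (0.730), over clusters that share 1 library. Osteoclast nuclei shared a cluster with granulocyte genes at this resolution. Over the 24 RNA clusters at a resolution of 2.0 the leading genes were Ppargc1b (0.873), Mdh2 (0.766), Ccl9 (0.743), Gnptab (0.737) and Slc27a1 (0.728), and across the 23 ATAC clusters they were Ppargc1b (0.882), Mfsd12 (0.833), St18 (0.817), Ccl9 (0.814) and Atp6v0e (0.811). Ppargc1b led and Ccl9 was among the first 5 in all 3 clusterings, and Ctsg in the first alone.

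Summed markers of most other cell types were lower in osteoclast nuclei than in the nuclei that were neither, the exceptions being macrophage and cycling markers and Ttn, which encodes the muscle protein titin. Cycling markers had 549 CPM in osteoclast nuclei, 337 in C1q nuclei and 294 in nuclei that were neither. Ttn had 208 CPM in osteoclast nuclei, 61.5 in C1q nuclei and 9.11 in nuclei that were neither, while the other 4 skeletal muscle markers (Myh4, Acta1, Ckm and Myh1) had 0 UMIs in osteoclast and C1q nuclei. Summed macrophage markers, which include Csf1r and C1q genes, had 1150.1 CPM in osteoclast nuclei, against 8718 in C1q nuclei, 220.2 in nuclei that were neither and 641 in low-count barcodes. Most of it came from the nucleus in both sets, and the other 34 osteoclast nuclei had 429 CPM (347 to 525), below the low-count barcodes. Of the 94 macrophage marker UMIs in these 34 nuclei, 66 were of Csf1r, a member, so the exception for macrophage markers was mainly Csf1r and that 1 nucleus. Osteoblast markers had 9223 CPM in osteoclast nuclei, against 18174 in C1q nuclei, 55269 in nuclei that were neither and 75048 in low-count barcodes. Erythroid markers had 464 CPM in osteoclast nuclei, 2168 in C1q nuclei, 2582 in nuclei that were neither and 2928 in low-count barcodes. The 6 T and NK markers had 0 UMIs in osteoclast nuclei. The part of such RNA in the results was not tested.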

How the data were processed

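The authors ran Cell Ranger ARC 2.0.0 against mm10 plus transgene sequences and deposited raw counts for every barcode, as RNA UMIs per gene and ATAC counts per peak. A separate deposited peak list was not used, and the transgene was not analysed here. Of the genes, 99.8% had a GENCODE model and 96.4% lay within 1 kb of its start.

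Barcodes with at least 500 UMIs and 1000 ATAC counts were kept (4663). Scrublet in scanpy 1.11.5 marked 0 of them, under 0.5%, so the highest scores were removed at 0.8% per 1000 barcodes (174, or 3.73%). RNA was clustered on 3000 variable genes, 30 components and 30 neighbours at a Leiden resolution of 1.0 (leidenalg 0.10.2), without the members, the osteoclast lists, C1q and mitochondrial genes. ATAC was clustered by latent semantic indexing on 203424 peaks with 29 components. Clusters were named from marker lists, with at least 3 markers detected, a mean log2 fold of at least 1.5 over the other clusters and a marker among the first 20 genes.

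Counts were summed per group as CPM. CPM had exact Poisson and shares exact Clopper-Pearson 95% intervals, for counting error only. Log2 ratios had 0.5 counts added on both sides, and genes with 20 or more UMIs in sum were called past 2-fold. With 1 library no test was possible. The call rule was run on simulated counts that held counting error only. The changes put in were larger than 2-fold and only in well-counted genes. The run therefore does not bear on calls near 20 UMIs or on sums that a few nuclei carry. Python 3.11.15, numpy 2.4.6, pandas 2.3.3, scipy 1.17.1 and scikit-learn 1.9.0 were used.

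The text names all members, C1qa, C1qb and C1qc, from each list up to 5 genes with the largest absolute ratio, the 6 other genes with the highest ratio over all other nuclei, and the 5 genes most like the osteoclast sum across clusters on log2(CPM + 10). The text leaves out 1 gene that this rule selects, which is not reported here and stays in the list counts. Members, lists and rules were chosen with earlier results of these data known.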

Additional observations from a re-analysis of the deposited data

How the results depend on the processing

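With 1 library of each kind no replicate could be left out, and no test was made. No paired analysis was possible because no group has replicates. Against the rule of 2 UMIs without a mitochondrial limit, 46 recomputed values stayed within the counting error of the main value, 43 fell outside it and 5 changed sign. The counting error of the recomputed values themselves was not taken into account, and some rest on few nuclei. The 46 include values that could not move. Examples are the number of C1q nuclei when only the osteoclast rule changed, and the number of osteoclast nuclei when only the C1q rule changed. The C1q locus within 1 kb of the starts is another, since it has the same peaks. The rule of 6 UMIs, the groups by ATAC clusters, the non-mitochondrial scaling, the scaling without Gm42418 and the removal of the shared nucleus were chosen after seeing the data. The number of osteoclast nuclei (101) was 14 with at most 10% mitochondrial UMIs, 45 with at most 20%, 752 with 1 UMI of the 7 genes, 62 with 3 UMIs, 46 without Ctsk in the rule, 22 without Acp5 and Ctsk, 35 with 6 UMIs and 13 after thinning. The number of C1q nuclei (413) was 65 and 167 under the 10% and 20% limits, 1195 with 1 C1q UMI, 231 with 3, 149 with 6 and 142 after thinning. The share of osteoclast nuclei that were C1q nuclei (17.8%) was 38.6% with 1 C1q UMI, 10.9% with 3, 2.86% with 6 of both and 0% after thinning. The share of C1q nuclei that were osteoclast nuclei (4.36%) was 23.5% with 1 UMI of the 7 genes, 1.94% with 3, 1.69% without Ctsk, 0.726% without Acp5 and Ctsk, 0.671% with 6 of both and 0% after thinning. The log2 ratio of C1q locus accessibility (−2.37) was −1.74 under the 10% limit, −1.17 with 1 C1q UMI, −2.95 with 3, −3.48 with 3 osteoclast UMIs, −4.02 without Acp5 and Ctsk and −3.32 with 6 of both. That of the osteoclast loci (0.29) was 0.16 under the 10% limit, −0.10 under the 20% limit, 0.59 with 1 C1q UMI, 0.055 with 3, −0.26 with 1 UMI of the 7 genes, 0.52 with 3, 0.90 without Ctsk, 1.12 without Acp5 and Ctsk, 0.68 with 6 of both and 0.94 within 1 kb of the start (5 loci). That of Csf1r RNA (−0.87) was −1.88 under the 20% limit, 0.46 with 1 C1q UMI, −1.66 with 3, −1.87 with 1 UMI of the 7 genes, 0.54 without Ctsk, 1.16 without Acp5 and Ctsk and −0.44 with 6 of both. The share of macrophage-like nuclei (6.08%) was 1.72% under the 10% limit. In that clustering the macrophage-like cluster of 24 nuclei held both osteoclast nuclei left by the rule of 6 UMIs, beside 14 C1q nuclei. No cluster was named osteoclast-like there, so RNA clusters did not separate the 2 sets under this limit. The cause of these changes was not tested. Calcr and Oscar had 0 UMIs in osteoclast nuclei, and Ocstamp and Dcstamp 24 and 33.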

Other observations

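Acp5 was also seen in erythroid-like nuclei, where it had 65 UMIs or 130 CPM (100 to 165) in 38 of 160 nuclei (23.8%), at a median of 1881.5 UMIs. Low-count barcodes had 37.4 CPM and B-lymphoid-like nuclei 23.1 CPM in 3.54% of nuclei. After thinning to 500 UMIs it was in 5.0% of erythroid-like nuclei (2.18 to 9.61) and 0.394% of B-lymphoid-like nuclei. The other osteoclast enzymes did not stand out there, with 21.9 CPM of Ctsk and 1.99 CPM of Atp6v0d2.

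Ctsk was spread at low level over stromal nuclei, with 51.0 CPM in osteoblast-like nuclei, 53.8 CPM in reticular-like nuclei and 18.4 CPM in chondrocyte-like nuclei, all below the 117 CPM of low-count barcodes.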
